A study of Mus musculus with 6 samples.

Results

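The phagocyte NADPH oxidase is the enzyme with which macrophages and neutrophils make superoxide, and 6 of its genes were examined here: CYBB, CYBA, NCF1, NCF4, RAC1 and RAC2. They were taken by name from a table of 20036 genes, and all 6 were found and were among the 12029 genes with enough reads to be tested. Other subunits of the enzyme are not reported here. In resting phagocytes the catalytic pair, CYBB and CYBA, sits in the membrane as a cytochrome, apart from its cytosolic subunits and from Rac. On stimulation the cytosolic subunits are phosphorylated and move to the membrane, Rac binds GTP, and electrons pass from NADPH through CYBB to oxygen on the far side of the membrane. Inherited loss of the subunits encoded by CYBB, CYBA, NCF1 or NCF4 causes chronic granulomatous disease, in which phagocytes take up microbes but kill them poorly.

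The cells were THP-1, an established human line from an acute monocytic leukaemia, turned into macrophage-like cells with PMA, a phorbol ester that activates protein kinase C, at 100 ng/ml over 48 h, in the lower part of a Transwell, in which a porous insert separates cells in shared medium. In the Melittin group (3 libraries), tumour cells were placed in the upper chamber and the wells received 3 µg/ml of melittin, a peptide that makes up much of bee venom and opens membranes, for the 48 h that both cell types shared. The reference was the group labelled NC (3 libraries). The labels do not spell out NC, do not name the tumour line and do not say whether the NC wells held tumour cells, so melittin and the co-culture cannot be told apart. All libraries came from 1 cell line, and no label ties them to separate cultures. The p-values given therefore reflect only how far these libraries spread, which may be technical. The organism label reads mouse, but all 20036 gene identifiers were human and 0 were mouse.

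Libraries held 16192032 to 19521897 counts in the Melittin group and 16001423 to 19597781 in the NC group. The groups differed widely: 9190 of 12029 genes (76.4%) had an adjusted p under 0.05 in edgeR's quasi-likelihood test, 38.1% higher and 38.3% lower with melittin. Of 12 macrophage markers listed, 10 were tested, of which 2 rose and 7 fell (1 of the rises, TYROBP, was not called with library totals alone), and their summed level was 609.3 to 631.9 CPM (counts scaled to library size with TMM factors) in Melittin libraries and 1379 to 1393 CPM in NC libraries. CD68 had 1 count in all 6 libraries together and MRC1 had 6 counts in Melittin and 17 in NC libraries, whereas CSF1R, through which macrophages receive their main growth factor, stood at 235.0 ± 2.98 and 721.8 ± 10.2 CPM (SD, n = 3). Whether the near absence of CD68 counts reflects missing RNA or the way reads were counted was not tested. Of 12 markers of epithelial and prostate tumour cells, 6 had 0 counts in every library, EPCAM, KRT18 and KRT19 among them. The sum over these 12 was 93.3 to 105.1 CPM in Melittin and 66 to 69.9 CPM in NC libraries. Of 10 granulocyte markers, 4 had enough reads to be tested, some of them through the Melittin libraries alone (PRTN3 had 107 counts there and 5 in NC libraries), and the list stood at a summed 12.6 to 13.1 CPM in Melittin libraries and 2.95 to 3.64 CPM in NC libraries. The part of these marker shifts in the results that follow was not tested, and in bulk RNA fewer cells of a type and less RNA per cell cannot be told apart.

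The 6 oxidase genes did not move as a unit. With melittin CYBB fell, NCF1 rose steeply, and CYBA, NCF4, RAC1 and RAC2 rose by smaller amounts. All 6 passed the test and in all 6 the 3 Melittin values lay clear of the 3 NC values, which was also the case for 76.4% and 77.4% of all tested genes, so these counts are not particular to the oxidase. In a test against a change of 1.5-fold, which 29.1% of tested genes passed, CYBB and NCF1 passed and the other 4 did not. The median log2 fold change of the 6 genes was 0.41, against -0.007 over all tested genes.

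**Figure D1:**
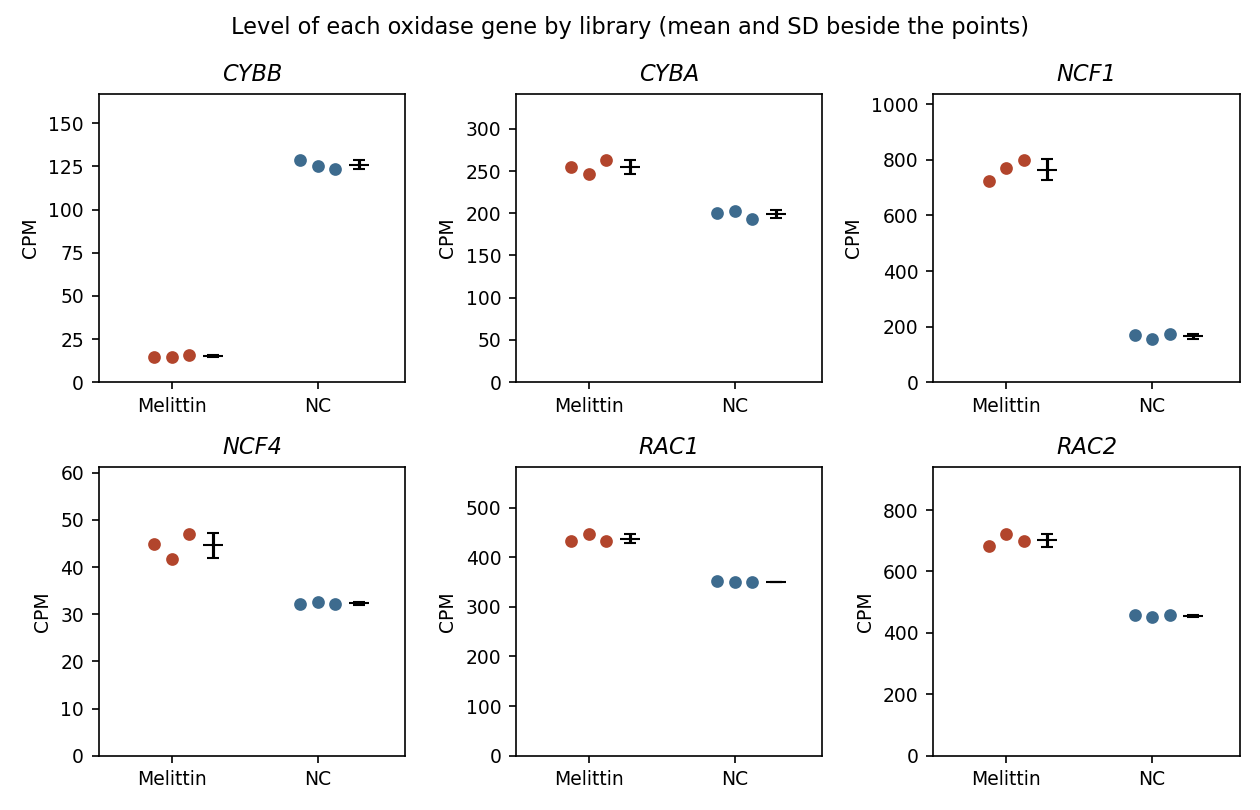
Each panel shows 1 gene, with CPM from 0 on the vertical axis, the 3 Melittin libraries on the left and the 3 NC libraries on the right; the bar beside the points is the mean with its SD. CYBB is the panel in which the Melittin points lie below the NC points (14.6 to 15.8 against 123.7 to 128.7 CPM), and NCF1 shows the widest gap in the other direction (723.2 to 799.2 against 155.7 to 172.3 CPM).

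CYBB encodes the catalytic core of the enzyme, a flavocytochrome that carries FAD and haem. The gene lies on the plus strand of chromosome X, 37780018 to 37813461 (GRCh38). It had 14.6, 14.6 and 15.8 CPM in Melittin replicates 1, 2 and 3, against 128.7, 125.5 and 123.7 CPM in NC replicates 1, 2 and 3. All Melittin libraries were thus far below all NC libraries, with little spread inside either group. The log2 fold change was -3.07 (SE 0.0523), 8.41-fold lower with melittin (edgeR adjusted p = 5.57e-27; against 1.5-fold, adjusted p = 2.87e-25). Ordered from the steepest fall, CYBB was number 59 of the 12029 tested genes. The transcript was still measurable with melittin, at 224, 263 and 236 counts per library, against 2617, 2666 and 2142 counts in NC libraries. Another gene of the table, without a name, overlaps CYBB on the same strand and had 0 counts in every library.

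CYBA encodes the small membrane partner that stabilises CYBB in the cytochrome and gives the organiser subunit its docking site. It lies on the minus strand of chromosome 16, 88643275 to 88651083. The levels were 254.7, 246.2 and 262.9 CPM in Melittin libraries and 199.8, 203.2 and 193.4 CPM in NC libraries. The lowest Melittin value was above the highest NC value, by a margin that was small beside the changes of CYBB and NCF1. The log2 fold change was 0.36 (SE 0.0302, 1.28-fold higher, edgeR adjusted p = 2.71e-11). Scaled by library totals alone, without TMM factors, it was 0.12 (edgeR adjusted p = 0.00058).

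The partners of the cytochrome thus moved apart. Within each library the ratio of CYBB to CYBA in FPKM (the deposited values, which are counts divided by gene length and library total) was 0.0495, 0.0515 and 0.0521 with melittin and 0.558, 0.535 and 0.554 in NC. The ratio was 10.8-fold lower with melittin, a difference of -3.43 on the log2 scale with SDs of 0.0384 in Melittin and 0.0327 in NC libraries. The exact two-sided permutation test gave p = 0.1, the smallest that 3 against 3 libraries can give. This ratio is taken inside a library and does not depend on how libraries are scaled.

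NCF1 encodes the organiser subunit, which is phosphorylated on activation and tethers the cytosolic complex to CYBA. It lies on the plus strand of chromosome 7, 74774011 to 74789315. It had 723.2, 771.6 and 799.2 CPM with melittin, against 170.1, 155.7 and 172.3 CPM in NC. Every Melittin library held more than 4 times the level of any NC library, the closest pair being 4.2-fold apart. The log2 fold change was 2.20 (SE 0.0353), 4.61-fold higher (edgeR adjusted p = 1.39e-27; against 1.5-fold, adjusted p = 2.87e-25). Ordered from the steepest rise, NCF1 was number 237 of the 12029 tested genes. The near-identical pseudogenes NCF1B and NCF1C share most of its sequence. Neither name occurs among the 20036 genes, so how reads were divided between NCF1 and its copies is uncertain.

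NCF4 encodes a further cytosolic subunit, which binds phosphatidylinositol 3-phosphate on the phagosome. It lies on the plus strand of chromosome 22, 36860988 to 36878017. It had 45, 41.7 and 47.1 CPM with melittin, against 32.2, 32.6 and 32.1 CPM in NC. The NC libraries were nearly equal, with a coefficient of variation of 0.833%, while the Melittin libraries spread by 6.14%, the widest of the 6 genes in that group. The log2 fold change was 0.46 (SE 0.059, 1.38-fold higher, edgeR adjusted p = 7.33e-08), and it was 0.23 with library totals alone and 0.27 after removal of a trend with gene length. The ratio of NCF4 to NCF1 in FPKM was 0.0949, 0.0823 and 0.0898 with melittin, against 0.289, 0.319 and 0.284 in NC, 3.34-fold lower with melittin (exact permutation p = 0.1, the smallest possible). The 2 cytosolic subunits both rose, and their proportion changed because NCF1 rose by more.

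RAC1 and RAC2 encode the small GTPases that switch the assembled oxidase on, RAC1 being found in most cell types and RAC2 mainly in blood cells. RAC1 (chromosome 7, 6374527 to 6403967, plus strand) had 432.3, 447.5 and 431.8 CPM with melittin, against 351.0, 349.6 and 350.0 CPM in NC. RAC2 (chromosome 22, 37225270 to 37259594, minus strand) had 682.1, 723.1 and 698.2 CPM with melittin, against 456.7, 450.9 and 458.9 CPM in NC. For both genes the groups were clearly apart, and the NC libraries were close to each other (coefficients of variation 0.207% for RAC1 and 0.908% for RAC2). The log2 fold change was 0.32 for RAC1 (SE 0.0252, edgeR adjusted p = 5.67e-12) and 0.62 for RAC2 (SE 0.0251, edgeR adjusted p = 1.96e-18; against 1.5-fold, adjusted p = 0.071). With library totals alone they were 0.09 and 0.39, and after removal of the length trend 0.42 and 0.45. The ratio of RAC2 to RAC1 in FPKM was 4.99, 5.11 and 5.11 with melittin and 4.12, 4.08 and 4.15 in NC, so RAC2 gained on RAC1 by 1.23-fold, or 0.30 on the log2 scale, with non-overlapping groups (exact permutation p = 0.1, the smallest possible). Without the length trend the gain nearly vanished, at log2 fold changes of 0.45 for RAC2 and 0.42 for RAC1.

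**Figure D2:**
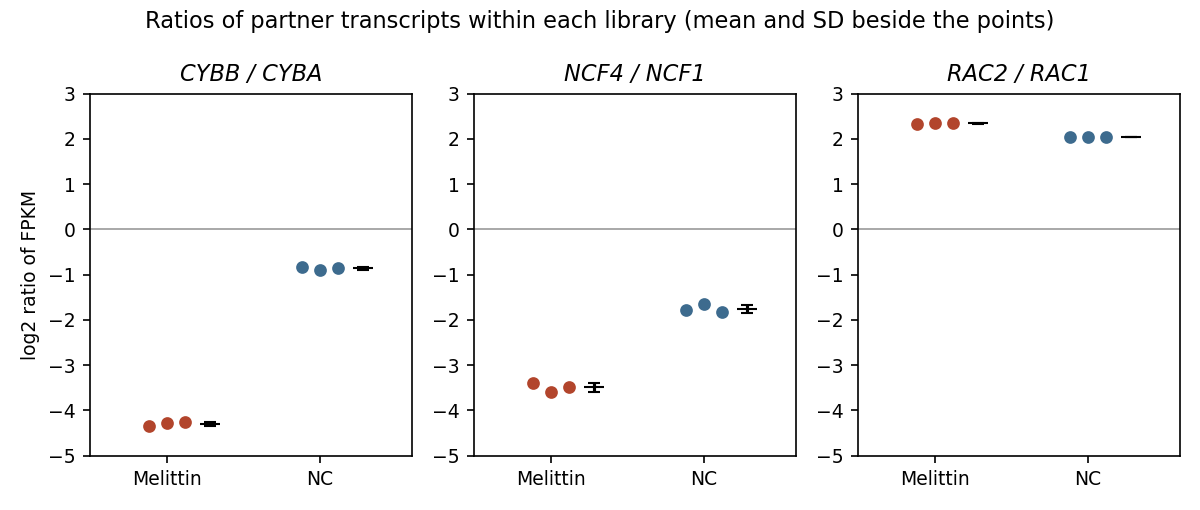
The vertical axis is the log2 ratio of FPKM between a pair of oxidase genes within a library, with Melittin libraries left of NC libraries and the mean with its SD beside the points; the grey line at 0 marks equal levels. CYBB over CYBA averages -4.29 with melittin and -0.87 in NC, NCF4 over NCF1 averages -3.49 and -1.75, and RAC2 over RAC1 averages 2.34 and 2.04.

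Scaling mattered for the 4 smaller changes. Library totals alone moved the median log2 fold change over all genes to -0.238, against -0.007 with TMM, and turned the split of passing genes to 33.6% higher, against 49.8%. Every oxidase gene kept its direction and passed under both, but the log2 changes of CYBA, NCF4, RAC1 and RAC2 shrank by over 1.5 times. CYBB had -3.30 and NCF1 1.97 with library totals alone, so their large changes did not hinge on the scaling. Removing the trend on gene length lowered NCF4 and RAC2, whose lengths are 2239 and 2616 bases, and raised RAC1, the longest of the 6 at 8276 bases.

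**Figure D3:**
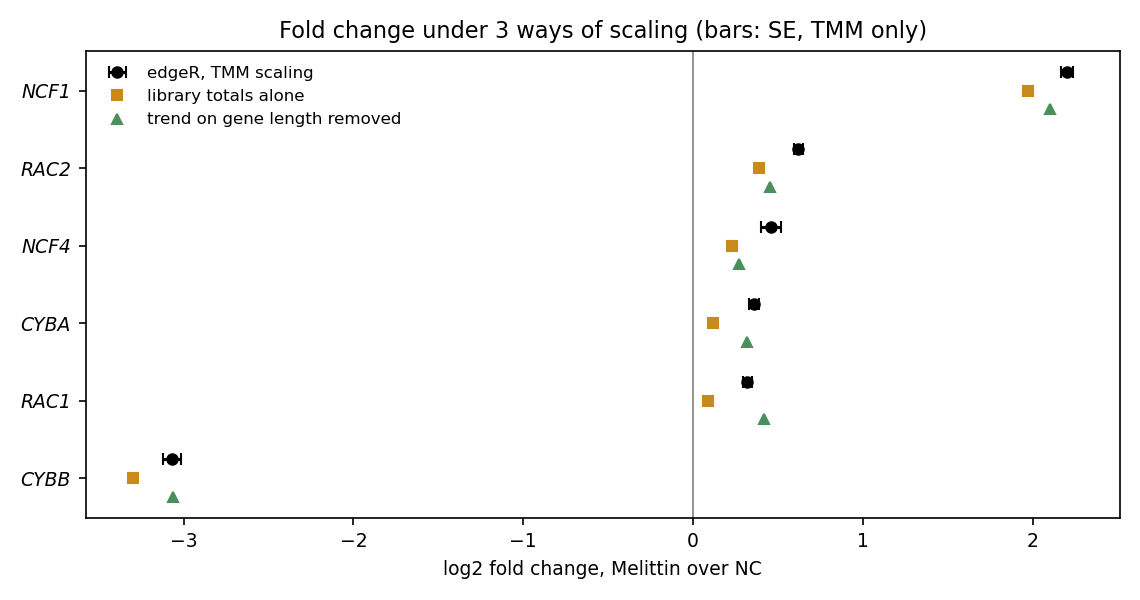
The horizontal axis is the log2 fold change of Melittin over NC for each oxidase gene. Circles (with SE bars) use TMM scaling, squares use library totals alone, and triangles come from the fit without the length trend; all 3 marks lie right of 0 for NCF1, RAC2, NCF4, CYBA and RAC1 and left of 0 for CYBB, with RAC1 nearest to 0 at 0.09.

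Compared per length, the order of the 6 transcripts differed between the groups. With melittin it was RAC2 at 247.4 ± 6.58 FPKM (SD, n = 3), NCF1 at 206.8 ± 9.85, CYBA at 56.5 ± 1.9, RAC1 at 48.8 ± 0.901, NCF4 at 18.4 ± 1.15 and CYBB at 2.88 ± 0.131 FPKM, and no neighbours in this order overlapped. In NC it was RAC2 at 188.6 ± 1.58 FPKM, NCF1 at 52.7 ± 2.83, CYBA at 51.8 ± 1.34, RAC1 at 45.8 ± 0.117, CYBB at 28.4 ± 0.594 and NCF4 at 15.6 ± 0.141 FPKM. NCF1 and CYBA overlapped there and cannot be put in order. Per length RAC2 was the most abundant in both groups, above 99% of the tested genes with melittin and 98.8% in NC. The order, these percentages and the shares given below depend on the gene lengths used for FPKM. Without division by length (3413 bases for NCF1, 2616 for RAC2), NCF1 was above RAC2 with melittin, at a mean of 764.7 against 701.1 CPM. CYBB stood above 45.6% of tested genes with melittin and 88.7% in NC, and CYBB and NCF4 thus changed places at the bottom of the order.

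The 6 genes together had 580.7 ± 14.2 FPKM with melittin and 383.0 ± 3.48 FPKM in NC. Of this sum CYBB made up 0.478 to 0.513% with melittin and 7.26 to 7.52% in NC. NCF1 made up 34.8 to 36.5% with melittin and 13 to 14.2% in NC. The shares of CYBA, NCF4, RAC1 and RAC2 were all lower with melittin although their levels were higher, since NCF1 took a larger part of the sum.

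**Figure D4:**
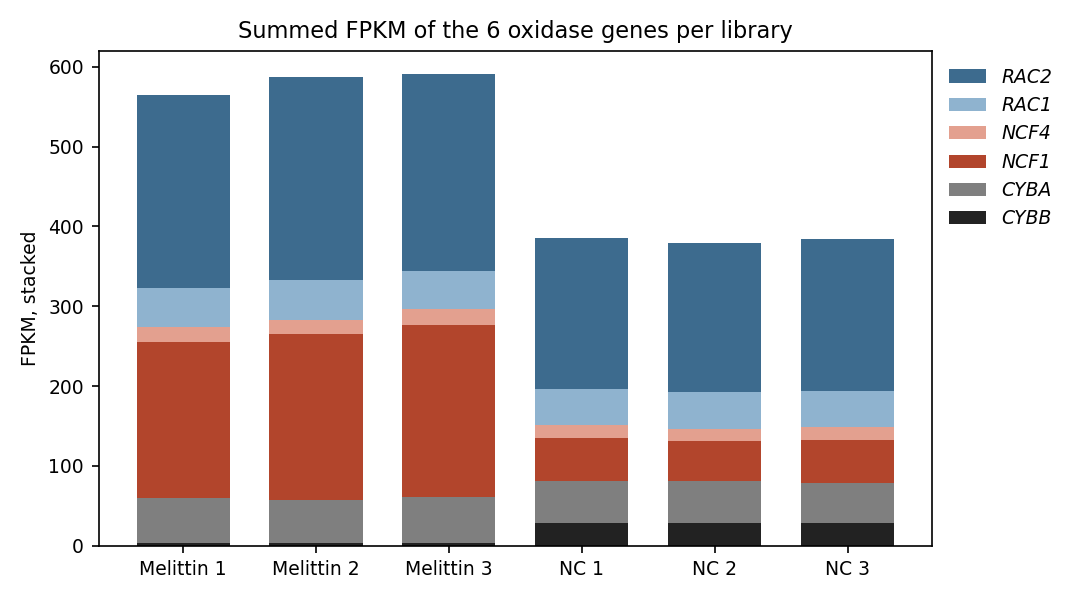
Bars stack the FPKM of the 6 oxidase genes in each library, the Melittin libraries left of the NC libraries. The total is 564.5 to 590.7 FPKM with melittin and 379.1 to 385.9 FPKM in NC; the bottom segment, CYBB, is nearly invisible with melittin, and the NCF1 segment is the one that widens most.

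In the Gene Ontology column of the table, all 6 genes carry the term NADPH oxidase complex. Of the 15 genes with this term 11 were tested, of which 9 rose and 1 fell, against 38.1% higher and 38.3% lower among all tested genes. The 6 genes described above are among these 11 and make up 5 of the 9 rises and the fall. They are likewise among the 14 tested genes with the term respiratory burst, of which 10 rose and 1, CYBB, fell. RAC3, a further rise under both terms, was tested through the Melittin libraries alone, with 57 counts there and 27 in NC libraries. Of 23 entries with the term superoxide anion generation, which 4 of the 6 oxidase genes carry, 15 were tested, 8 rose and 3 fell.

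Of 4 listed genes that serve the membrane part of the enzyme, 2 rose and 1 fell, and 1 rose and 2 fell with library totals alone. With TMM, 38.1% of all tested genes rose and 38.3% fell. CYBC1, the chaperone that CYBB and CYBA need to mature, rose to 71.1 ± 1.58 CPM with melittin, against 49.5 ± 1.78 CPM in NC, a log2 fold change of 0.52 (edgeR adjusted p = 7.43e-11). It thus went with CYBA and not with CYBB. CLCN3, a chloride-proton exchanger of endosomes, fell to 35.1 ± 1.57 CPM, against 56 ± 2.08 CPM in NC (log2 fold change -0.68). RAP1A, a small GTPase found with the cytochrome, had a log2 fold change of 0.11 with TMM and of -0.12 with library totals alone, so its direction depends on the scaling. HVCN1, the proton channel that balances the charge moved by the oxidase, had 10.2 ± 1.21 CPM with melittin and 8.69 ± 0.608 CPM in NC (edgeR adjusted p = 0.082).

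Other oxidases of the family were low in both groups. Of 10 genes for other NOX and DUOX enzymes and their own subunits, 3 were tested and 2 rose. The share that rose over all tested genes was 38.1%. NOX3, known mainly from the inner ear, had 6.72 ± 0.65 CPM with melittin and 4.11 ± 0.0309 CPM in NC, which is 3.13 and 2.25 FPKM per length (log2 fold change 0.71, edgeR adjusted p = 6.96e-05). Per length NOX3 and CYBB (2.88 FPKM) were thus at a like level with melittin, whereas in NC NOX3 was far below CYBB at 28.4 FPKM. NOXA1, an activator subunit of NOX1, had 1.38 ± 0.428 CPM with melittin and 0.597 ± 0.0357 CPM in NC (log2 fold change 1.20). NOX1 had 29 counts over the Melittin and 41 over the NC libraries and did not pass (edgeR adjusted p = 0.654). NOX4, NOX5, DUOXA1, DUOXA2 and NOXO1 had 0 counts in every library, where 3 counts would correspond to 0.141 to 0.201 CPM.

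Genes that control Rac went both ways. Of 16 tested genes for exchange factors, inhibitors, GTPase-activating proteins and RAC3, 3 rose and 7 fell (median log2 fold change -0.08), 1 and 10 with library totals alone, 4 and 5 without the length trend, and 1 rose and 6 fell without Melittin replicate 1 or without NC replicate 1. Thus 10 of 16 passed, against 76.4% of all tested genes. RAC3, 1 of the 3 rises, was tested through the Melittin libraries alone, with 57 counts there and 27 in NC libraries. With a filter of at least 1 CPM in 3 libraries, RAC3 dropped out, and 2 of 15 tested genes rose. ARHGDIB, an inhibitor that holds Rac and related GTPases in the cytosol and is typical of blood cells, fell to 222.7 ± 4.39 CPM with melittin, against 321.5 ± 4.85 CPM in NC, and its relative ARHGDIA to 165.2 ± 2.4 CPM, against 198.2 ± 3.94 CPM. VAV1, the haematopoietic exchange factor for Rac, fell to 85.9 ± 0.878 CPM, against 130.2 ± 2.07 CPM in NC, and DOCK5 fell by 0.41 on the log2 scale. PREX1, an exchange factor first found in neutrophils, had 140.1 ± 1.68 CPM with melittin and 144.5 ± 3.54 CPM in NC (edgeR adjusted p = 0.226) and passed as lower with library totals alone (-0.27). BCR had 39 ± 0.93 and 36.6 ± 1.68 CPM, and passed as lower with library totals alone (-0.14) and as higher without the length trend (0.27).

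Kinases that act on the cytosolic subunits or upstream of them went both ways. Of 22 tested, 10 rose and 11 fell, and 6 rose and 13 fell with library totals alone. Among all tested genes 76.4% passed, 38.1% higher and 38.3% lower. PRKCB, a protein kinase C isoform that phosphorylates NCF1, rose to 261.0 ± 2.86 CPM with melittin, against 138.1 ± 3.32 CPM in NC (log2 fold change 0.92, edgeR adjusted p = 1.14e-20). MAPK14, the p38 alpha kinase, and PIK3R5, a regulatory subunit of phosphoinositide 3-kinase gamma, each had a log2 fold change of 0.64. PAK2, a kinase activated by Rac, fell to 277.8 ± 6.44 CPM, against 442.6 ± 3.64 CPM in NC. PRKCE had 1.78 ± 0.442 and 1.33 ± 0.204 CPM (edgeR adjusted p = 0.17).

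Receptors that trigger or prime the oxidase included some of the widest changes of these lists. Of 17 tested, 8 rose and 9 fell (median log2 fold change -0.15), against 38.1% higher and 38.3% lower among all tested genes. With library totals alone, and likewise without the length trend, 7 rose and 10 fell. Of the 20 listed, 3, the formyl peptide receptors FPR1, FPR2 and FPR3, had too few counts to be tested. FCGR2A, an activating receptor for IgG, rose to 47.5 ± 4.2 CPM with melittin, against 4.07 ± 0.494 CPM in NC (log2 fold change 3.54, edgeR adjusted p = 4.01e-22). CSF2RB, the common beta chain of the GM-CSF receptor, rose to 205.6 ± 3.02 CPM, against 71.9 ± 2.11 CPM. ITGAM, the alpha chain of complement receptor 3, rose to 89.2 ± 4.52 CPM, against 36 ± 1.27 CPM, and TLR2 to 831.1 ± 15.5 CPM, against 487.4 ± 4.08 CPM. Among the 9 that fell, the steepest falls, named after their values were seen, were those of TLR4, the receptor for lipopolysaccharide, C3AR1, the receptor for complement C3a, and FCGR1A, the high-affinity receptor for IgG, with log2 fold changes of -1.55, -1.12 and -0.98.

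Transcription factors known to act on oxidase promoters also split. Of 19 tested, 10 rose and 7 fell, and 7 rose and 8 fell with library totals alone. Among all tested genes 76.4% passed with TMM, 38.1% higher and 38.3% lower. IRF8, a myeloid factor known to bind the CYBB promoter, rose to 92.3 ± 2.51 CPM with melittin, against 12.2 ± 1.14 CPM in NC (log2 fold change 2.92, edgeR adjusted p = 8.73e-25). BCL6 and CEBPB rose, with log2 fold changes of 1.21 and 0.88. SPI1, which encodes PU.1, had 291.2 ± 6.92 CPM with melittin and 281.7 ± 4.01 CPM in NC (log2 fold change 0.05, edgeR adjusted p = 0.11), and IRF1 had 24.2 ± 1.71 and 22.9 ± 1.1 CPM and passed as higher without the length trend (0.26). SPI1 passed as lower with library totals alone (-0.18) and without the length trend (-0.16).

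Enzymes that act on superoxide and hydrogen peroxide rose in 7 and fell in 2 of 11 tested cases (median log2 fold change 0.48), and in 6 and 3 with library totals alone. Only 1 fell without Melittin replicate 1, NC replicate 1 or NC replicate 3. With all libraries, 38.1% of all tested genes rose and 38.3% fell. SOD2, the mitochondrial superoxide dismutase, rose to 2409 ± 19.2 CPM with melittin, against 1387 ± 9.2 CPM in NC (log2 fold change 0.80). The peroxide-reducing enzymes PRDX5, GPX4 and PRDX1 had log2 fold changes of 0.90, 0.65 and 0.54. SOD1, the cytosolic dismutase, had 87.8 ± 2.23 CPM with melittin and 83.1 ± 1.64 CPM in NC (edgeR adjusted p = 0.0706) and passed as lower with library totals alone (-0.15). GPX1 had 8.6 ± 3.29 and 8.24 ± 0.115 CPM. MPO, the enzyme that turns hydrogen peroxide into hypochlorous acid in neutrophils, had 1 count over the Melittin and 1 over the NC libraries.

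**Figure D5:**
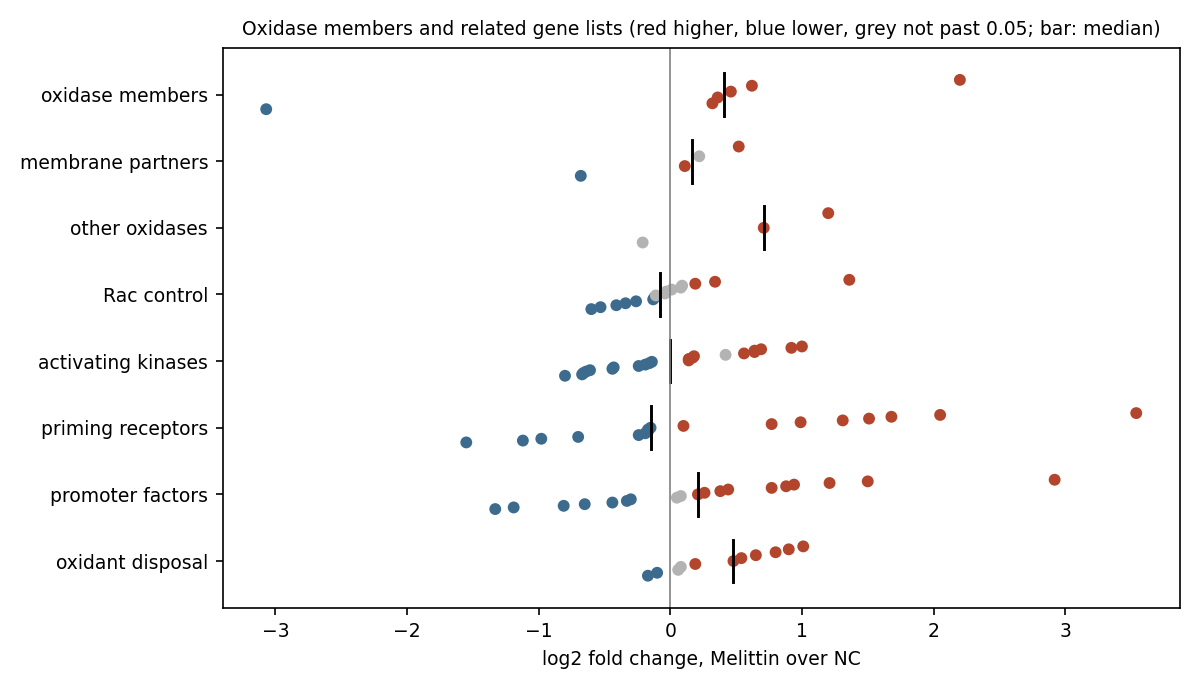
Each point is a tested gene, placed by its log2 fold change of Melittin over NC on the horizontal axis, with a row for the 6 oxidase genes and for each related list; red passed as higher, blue as lower, grey did not pass, and the black bar is the median. CYBB at -3.07 is the leftmost point of all rows, and every row has its median between -0.15 and 0.71.

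The genes with the most similar profiles were sought among 7957 genes with a mean of at least 10 CPM, by the root mean square distance of centred log2 CPM over the 6 libraries. Since nearly all variance lies between the groups, this measure mainly finds genes with an equal fold change. The closest to CYBB were FYB1, an adaptor of immune cells (distance 0.093, log2 fold change -2.98), and SAMD9L, an interferon-induced gene (0.095, -3.12). The closest to NCF1 were SRGN, the granule proteoglycan serglycin (0.051, 2.21), and IER3 (0.065, 2.32). The other 4 genes had neighbours at 0.013 to 0.029: AKIRIN2 and TPMT for CYBA, SART1 and UPF1 for NCF4, ATP6AP1 and RAB29 for RAC1, and ING1 and SERPINB1 for RAC2. The closest matches of CYBB and NCF1, with larger changes, thus lay farther off than those of the rest.

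The genes next to the oxidase genes on the chromosome were looked up after the main values were known. MVD, an enzyme of cholesterol synthesis that lies 851 bases from CYBA, had a log2 fold change of 1.25. On the other side of CYBA, ZC3H18 had a log2 fold change of -0.24. XK, the nearest tested gene before CYBB, 47887 bases away, fell to 1.92 ± 0.824 CPM with melittin, against 6.92 ± 0.574 CPM in NC (log2 fold change -1.88, edgeR adjusted p = 5.49e-09), while DYNLT3, 23295 bases beyond CYBB, had 62.2 ± 3.43 and 66.2 ± 5.54 CPM (edgeR adjusted p = 0.117) and passed as lower with library totals alone (-0.33) and without the length trend (-0.22). NCF4 and RAC2 lie 347252 bases apart on chromosome 22, and the nearest tested gene beyond NCF4, 35610 bases away, is CSF2RB, described above among the receptors. CYTH4 beside RAC2 fell (-0.42). GTF2I beside NCF1 did not pass (-0.04), but passed as lower with library totals alone (-0.28) and as higher without the length trend (0.13). IFT27 beside NCF4 and DAGLB beside RAC1 rose (0.68 and 0.69). CYTH3 beside RAC1 rose (0.29) but did not pass with library totals alone. SPDYE12 beside NCF1 and C1QTNF6 beside RAC2 rose (1.13 and 0.91) at low levels, 1.19 against 0.545 CPM and 1.44 against 0.771 CPM in NC. Neither passed with library totals alone, without Melittin replicate 1 or without NC replicate 2, among other settings.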

How the data were processed

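RNA of 3 Melittin and 3 NC libraries was analysed. The authors deposited unnormalised read counts and FPKM values for each gene. Per the submitters' processing notes the build was GRCh38; the sources used here do not give the aligner, counter, strand setting or annotation. The deposited FPKM equal the count divided by gene length and by the library's total, within a relative deviation of 2.2e-09 for counts of at least 20, and so carry no TMM factor. Coordinates are those of the table, and the available reference, which is mouse, was left unused.

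Counts were fitted with edgeR 4.0.16 in R 4.3.3: filterByExpr, TMM factors (0.921 to 0.926 in Melittin, 1.08 in NC), glmQLFit and glmQLFTest with Benjamini-Hochberg adjustment over 12029 genes and a threshold of 0.05. An SE is the log2 fold change divided by the square root of F. Ratios of FPKM were compared by an exact permutation test over libraries. The edgeR fit was tried on simulated counts with means and dispersions taken from these data. The ratios, the removal of the length trend and the search for similar profiles were not. Far fewer genes changed in the simulation than in these data, so it cannot show how the fit does where most genes change. Within groups, pairs of libraries differed by more than sampling noise (chi-square of 1.73 to 3.92 for each degree of freedom), so none was treated as a library deposited again; this does not show separate cultures.

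The genes and lists were chosen with earlier results of these data known. Named genes were all 6 oxidase genes, per list up to 4 passing genes with the smallest adjusted p and up to 2 of the most abundant not passing, and the 2 most similar profiles per oxidase gene. Some genes that this rule or a list selects are not reported here. Markers and chromosomal neighbours were named outside this rule. The alternatives, among them limma 3.58.1 and DESeq2 1.42.0, are given in the closing section.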

Additional observations from a re-analysis of the deposited data

How the results depend on the processing

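All 6 oxidase genes kept their direction and passed in each of the 17 alternatives: other scalings, filters, DESeq2, limma-voom, limma on log2(FPKM + 0.1) and log2(FPKM + 1), the replicate block, the removal of the length trend (chosen after seeing the data) and each library left out. The log2 fold change ranged from -3.30 to -2.92 for CYBB, 1.95 to 2.24 for NCF1, 0.39 to 0.64 for RAC2, 0.22 to 0.51 for NCF4, 0.12 to 0.38 for CYBA and 0.09 to 0.42 for RAC1. With a library left out they stayed between -3.11 and -3.05 for CYBB and between 2.16 and 2.24 for NCF1, and the number of passing genes between 8857 and 9147. The low ends for RAC2, NCF4, CYBA and RAC1 came from the scalings by library total, FPKM included, which hold no TMM factor.

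Same-numbered libraries did not deviate together (correlations of -0.0461, 0.0178 and -0.0191). These values cannot show whether same-numbered libraries were cultured or prepared together, which the labels do not say. With the replicate block 9050 genes passed, against 9190, and the oxidase genes had the same log2 fold changes to 2 decimals (CYBB -3.07, NCF1 2.20). The differences in log2 ratio ranged from -3.45 to -3.41 (CYBB to CYBA), -1.79 to -1.69 (NCF4 to NCF1) and 0.30 to 0.31 (RAC2 to RAC1) over a ratio of counts and each library left out. These settings do not touch gene length: without the length trend RAC2 and RAC1 had log2 fold changes of 0.45 and 0.42, so their difference nearly vanished. Counts were ample for the 6 genes, with CYBB in Melittin libraries lowest at 224.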
